A study of Mus musculus with 8 samples.

Results

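The levels of 9 chamber-restricted genes were followed in mouse embryonic ventricles: the atrial genes Myl7, Myl4, Sln, Nr2f1 and Nr2f2, the ventricular genes Myl2 and Myl3, and Stard10 and Myl1, which were listed with them but enter neither side of the atrial to ventricular comparison. The members were chosen by symbol. They are 9 of the 53465 genes in the table and of the 15388 genes that passed the filter on low counts, and 9 of 9 passed it. RNA-seq was performed on polyadenylated RNA of heart ventricles at embryonic day 15.5 (E15.5), with 4 libraries of control (WT) embryos and 4 of the genotype Nrg-1flox;Cdh5-CreERT2, with 1 ventricle for each library according to the labels. Cdh5-CreERT2 is a tamoxifen-inducible Cre recombinase driven by the promoter of Cdh5, the endothelial VE-cadherin gene, so that recombination of the floxed neuregulin gene is directed to endothelial and endocardial cells and not to cardiomyocytes. The labels give no tamoxifen dose or day, no age or sex of single embryos, no Cre or floxed allele for the WT group, and do not say which exons are floxed.

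Atrial and ventricular cardiomyocytes build their sarcomeres from different myosin light chains, small proteins that bind the lever arm of the myosin head. Each head carries 1 regulatory and 1 essential light chain, and in the heart each class has an atrial and a ventricular form. Atrial cells also carry sarcolipin on their calcium pump, and their identity is maintained by the COUP transcription factors. The comparison between the groups addresses whether chamber-restricted expression in the ventricle differs where endothelial Nrg1, the ligand of the ErbB receptors of cardiomyocytes, is targeted.

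The library totals ranged from 16761763 to 24144272 expected counts. Levels are given as CPM, a gene's count relative to the size of its library with the size corrected by TMM factors, and mean ± SD is over n = 4 libraries. The targeted gene, Nrg1, was at 4.08 to 5.46 CPM in WT and at 5.36 to 6.82 CPM in the other group, so it was not lower there. Its log2 fold change was 0.34 (95% confidence interval 0.08 to 0.60, edgeR FDR 0.311). The interval, which is not adjusted for the number of genes tested, lay above 0. Cdh5 itself, whose promoter drives the Cre, was at 285 ± 4.39 and 287 ± 8.51 CPM. The Nrg1 value counts the whole gene, floxed or not, and does not check the excision, so these libraries are called labelled-mutant libraries below. The tissue label was checked for heart muscle with 8 cardiomyocyte genes. They were chosen as heart muscle genes, and Myh6 is also in the list of other atrial genes below, so the check does not tell ventricle from atrium. Their summed CPM was 26610 to 28550 in WT and 25000 to 28990 in the labelled-mutant libraries, with 0 of 8 past the FDR. Among them Myh6, the alpha myosin heavy chain, was at 2330 ± 187 and 2041 ± 86.5 CPM (log2 fold change -0.19, edgeR FDR 0.134, but 0.0128 with DESeq2 and 0.00292 with no filter on low counts), and Ttn, which encodes titin, at 2566 ± 538 and 2873 ± 921 CPM. The 4 lung epithelium genes summed to at most 0.233 CPM. The summed CPM of 4 Y-linked genes was 69.3 to 171 in WT and 42.9 to 120 in the labelled-mutant libraries. The female-specific RNA Xist reached 134, 206, 140 and 0.176 CPM in WT libraries 1 to 4 and 327, 282, 263 and 103 CPM in the labelled-mutant libraries. Thus 7 of 8 libraries held Xist and Y-linked RNA together, which goes against a single embryo as the source of each, and WT library 4 held hardly any Xist. The group means of Xist were 120 ± 86.3 and 244 ± 97.7 CPM (log2 fold change 1.03, edgeR FDR 0.651). The part of the sexes in the results was not tested beyond a fit that holds the Y-linked level as a covariate.

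No member passed the false discovery rate (FDR) of 0.05 in the edgeR quasi-likelihood test (0 of 9), where 81 of all 15388 genes did, or 0.526%. At an unadjusted p below 0.05 the count was 1 of 9 members, Stard10, against 10.5% of all genes. DESeq2 called 0 of 9 members at the same FDR and limma voom 0 of 9, each with 2 members at an unadjusted p below 0.05. The WT and labelled-mutant libraries overlapped for 9 of 9 members, while 6.05% of all tested genes had groups that did not overlap. The log2 fold change was below 0 for 8 of 9 members, with a median of -0.10, and for 50.6% of all genes, with a median of 0.00. The members were chosen with earlier results of these data known, so these shares were not tested against each other. In bulk tissue, fewer cells of a type and less RNA per cell cannot be told apart.

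Myl2 (chr5:122100951-122113472, + strand, GRCm38) and Myl7 (chr11:5896637-5898782, - strand) encode the ventricular and the atrial regulatory light chain. The 2 messages are close relatives, and reads of 60 bases have to tell them apart. To show how, a stretch of 60 coding bases of Myl2 from coding base 58 is given with the most alike stretch of Myl7, from coding base 82. Capitals mark the bases of Myl7 that differ from Myl2, 11 of 60.
Myl2: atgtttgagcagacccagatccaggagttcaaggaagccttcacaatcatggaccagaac
Myl7: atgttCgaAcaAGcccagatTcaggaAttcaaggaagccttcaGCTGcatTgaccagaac
No run of 60 bases in any annotated transcript of Myl7 or Myl2 occurred on the same strand in a transcript of another gene. On the other strand Myl2 shared 8 such runs with Ccdc63, which overlaps 3.08% of its exonic bases, and its expected counts were not whole in 4 of 8 libraries.

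In WT libraries 1 to 4, Myl7 stood at 277, 290, 282 and 280 CPM, and it stood at 231, 298, 247 and 255 CPM in labelled-mutant libraries 1 to 4. The WT libraries lay close together, whereas 3 of the 4 labelled-mutant libraries lay below all WT libraries and labelled-mutant library 2 lay above them all. The mean was 282 ± 5.28 CPM in WT and 258 ± 28.4 CPM in the labelled-mutant libraries, a log2 fold change of -0.13 (95% confidence interval -0.26 to 0.00, SE 0.0607), with an edgeR FDR of 0.475. In percent, the interval of the Myl7 difference ran from -16.6% to 0.0145%. Labelled-mutant library 2 set much of this spread: without it the Myl7 difference was -0.21 on the log2 scale, with an edgeR FDR of 0.0592, which still missed the threshold.

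Myl2 was the most abundant member, at 4995, 5017, 5032 and 4906 CPM in WT and at 5115, 5302, 5127 and 4632 CPM in the labelled-mutant libraries. The labelled-mutant libraries held both the highest and the lowest Myl2 value, library 2 and library 4. The means were 4988 ± 56.3 and 5044 ± 288 CPM, a log2 fold change of 0.02 (95% confidence interval -0.06 to 0.09, SE 0.0345, edgeR FDR 0.926). The interval of the Myl2 difference ran from -3.97% to 6.5%, and the sign of the difference turned with the Y-linked covariate (-0.05) and without labelled-mutant library 2 (-0.01).

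Per kilobase of the main transcript, Myl7 stood at 6.23%, 6.48%, 6.29% and 6.4% of the Myl2 level in the WT libraries and at 5.07%, 6.3%, 5.4% and 6.17% in the labelled-mutant libraries. The means were 6.35 ± 0.112% and 5.73 ± 0.594%. Per kilobase of all annotated exonic bases, of which Myl2 has many more than its main transcript, the shares were 18.7 ± 0.331% and 16.9 ± 1.75%, so the atrial regulatory chain stood below the ventricular one in every library on both lengths, by a margin that depends on the length. Labelled-mutant libraries 1 and 3 were the lowest, and library 2 lay within the WT range.

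**Figure D1:**
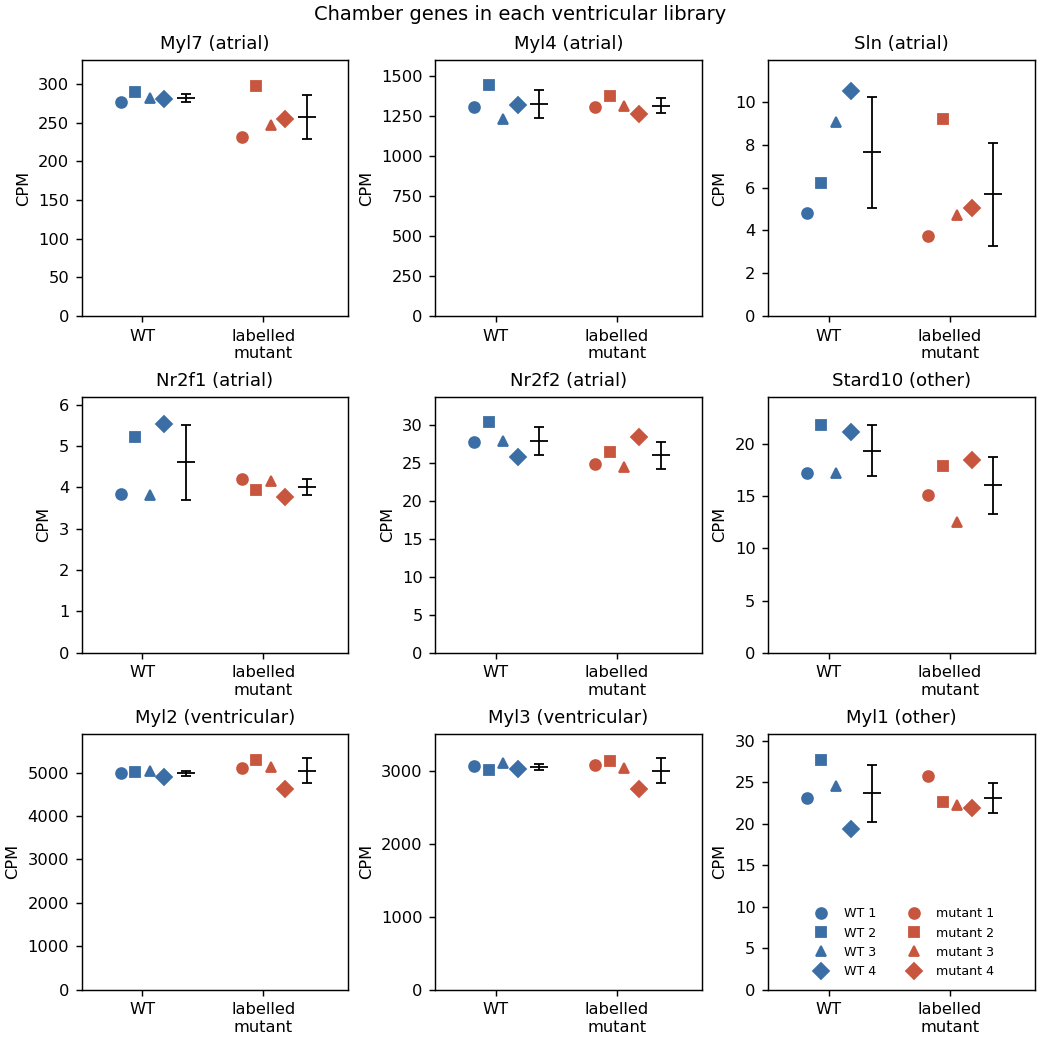
CPM of the 9 members in each library, with a panel per gene whose vertical axis starts at 0; points are single libraries (circle, square, triangle and diamond for replicates 1 to 4), and bars are mean ± SD of 4 libraries. The groups overlap in every panel, and labelled-mutant library 2 (red square) is the highest of its group for Myl7, Myl4, Sln, Myl2 and Myl3.

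The essential light chains come next. Myl3 (chr9:110741861-110769798, + strand) encodes the ventricular form, which slow skeletal muscle shares, and Myl4 (chr11:104550663-104595753, + strand) the atrial form, which is also made in the embryonic ventricle and in embryonic skeletal muscle. Myl1 (chr1:66924295-66945404, - strand) encodes the essential chain of fast skeletal muscle. A window of 60 coding bases of Myl3, from coding base 418, is shown with its closest match in each relative because the 3 genes are most alike here, and capitals mark what differs from Myl3, 5 bases in Myl4 and 7 in Myl1.
Myl3: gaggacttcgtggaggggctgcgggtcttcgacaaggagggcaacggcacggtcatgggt
Myl4: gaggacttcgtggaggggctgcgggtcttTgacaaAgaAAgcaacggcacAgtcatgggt
Myl1: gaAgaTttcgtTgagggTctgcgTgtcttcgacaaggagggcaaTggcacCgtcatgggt
Even in this stretch no run of 60 bases was shared, and Myl3 and Myl4 shared no such run on the same strand with any gene. Myl3 overlaps Pth1r on the other strand over 4.65% of its exonic bases, and its expected counts were not whole in 3 of 8 libraries. Myl1 shared 212 of its 2067 runs, or 10.3%, with the pseudogene Mylf-ps, so its expected counts could be divided with that copy, although they were whole numbers in 8 of 8 libraries.

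Myl4 was at 1301, 1441, 1232 and 1319 CPM in WT and at 1303, 1372, 1309 and 1259 CPM in the labelled-mutant libraries. WT held both the highest and the lowest value, and the labelled-mutant libraries lay between them. The means of 1323 ± 87.1 and 1311 ± 46.6 CPM gave a log2 fold change of -0.01 (95% confidence interval -0.11 to 0.08, SE 0.0436, edgeR FDR 0.957), or between -7.22% and 5.76%. The sign of the Myl4 difference was positive without WT library 2 (0.03) and without labelled-mutant library 4 (0.01).

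For Myl3 the WT libraries were at 3071, 3012, 3116 and 3033 CPM and the labelled-mutant libraries at 3087, 3139, 3048 and 2762 CPM. Labelled-mutant library 4 was the lowest, as for Myl2, and the other 3 lay within or just above the WT range. The Myl3 difference was -0.02 on the log2 scale (95% confidence interval -0.10 to 0.05, SE 0.0355, edgeR FDR 0.886) and turned to 0.02 without labelled-mutant library 4. The atrial essential chain was at 46.2 ± 3.68% of the ventricular one per kilobase of main transcript in WT and at 46.5 ± 1.54% in the labelled-mutant libraries. Per kilobase of all exonic bases the shares were 19.1 ± 1.52% and 19.2 ± 0.639%. The share of Myl4 in Myl3 was thus above that of Myl7 in Myl2 on the main transcripts, whereas on all exonic bases the WT shares were close, 19.1% and 18.7%.

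Myl1 was at 23.1, 27.6, 24.6 and 19.4 CPM in WT and at 25.8, 22.6, 22.2 and 21.9 CPM in the labelled-mutant libraries. All 4 labelled-mutant libraries fell within the WT range, and the log2 fold change was -0.03 (95% confidence interval -0.23 to 0.17, SE 0.0923, edgeR FDR 0.945), with 0.05 when WT library 2 was left out. Per kilobase it reached 0.671 ± 0.0995% of Myl3 in WT and 0.666 ± 0.0473% in the labelled-mutant libraries. Myod1 and Myf5, which commit cells to skeletal muscle, were at 0 in 8 of 8 libraries. Of 11 skeletal muscle genes, 7 were tested and 0 passed the FDR, with a median log2 fold change of 0.18. Myh3, the embryonic skeletal myosin heavy chain, averaged 0.532 ± 0.18 CPM in WT and 0.782 ± 0.195 CPM in the labelled-mutant libraries, and Myog, a skeletal differentiation factor, at 0.489 ± 0.233 and 0.368 ± 0.134 CPM. Myf6 and Tnnc2 averaged at most 0.0686 CPM in either group. Other genes of the list stood higher, in WT and labelled-mutant libraries in turn, and whether each is specific to skeletal muscle was not tested. Tnni2 was at 14.7 ± 2.64 and 18.4 ± 2.79 CPM (log2 fold change 0.32, edgeR FDR 0.393). Tnnt3 was at 1.76 ± 0.391 and 1.39 ± 0.275 CPM, Myh8 at 4.1 ± 1.12 and 4.7 ± 0.532 CPM, and Ckm at 1493 ± 135 and 1585 ± 169 CPM. The part of skeletal muscle RNA in the Myl1 level was not tested.

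The light chains of non-sarcomeric and smooth muscle myosins, and the fast skeletal regulatory chain Mylpf, were a reference for the members. Of 8 such genes, 6 were tested, 0 passed the FDR and the median log2 fold change was -0.06. Mylpf was at 2.77 ± 0.272 CPM in WT and at 3.12 ± 0.335 CPM in the labelled-mutant libraries, which places the fast skeletal regulatory chain, like the essential one, far below its ventricular counterpart. Myl12b, a regulatory chain of non-muscle myosin, was at 51.1 ± 4.65 and 47.2 ± 0.693 CPM, a log2 fold change of -0.11 (edgeR FDR 0.501).

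**Figure D2:**
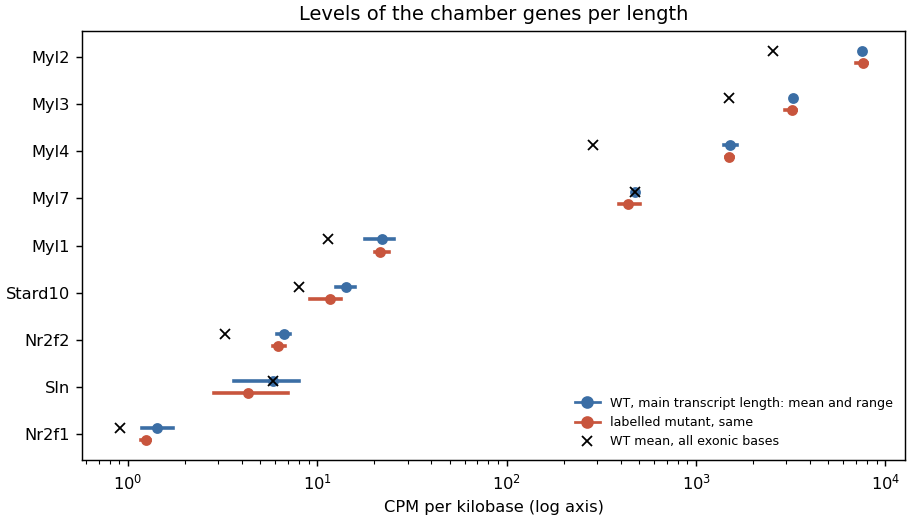
CPM per kilobase of the 9 members on a log axis, with the mean (point) and range (line) of 4 WT and 4 labelled-mutant libraries per kilobase of the main transcript, and the WT mean per kilobase of all exonic bases (cross). The ventricular light chains head the order on both lengths, while Myl4 and Myl7 change places, as do Nr2f2 and Sln.

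Levels of different genes were compared per kilobase. With the length of the main transcript, the WT means were 7530 ± 85.1 CPM per kilobase for Myl2, 3260 ± 48.6 for Myl3, 1510 ± 99.1 for Myl4 and 478 ± 8.94 for Myl7. The other members followed at a distance, with 21.9 ± 3.17 CPM per kilobase for Myl1, 14.1 ± 1.79 for Stard10, 6.63 ± 0.438 for Nr2f2, 5.80 ± 1.97 for Sln and 1.43 ± 0.281 for Nr2f1. Neighbours in this order lay apart by more than their ranges in WT, except for Nr2f2 (6.13 to 7.2) and Sln (3.65 to 7.97). The labelled-mutant means had the same order. With the length of all annotated exonic bases, Myl7 at 478 came before Myl4 at 285 CPM per kilobase, and Sln at 5.80 before Nr2f2 at 3.24, so the order of these pairs depends on which transcripts are made.

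Sln (chr9:53850164-53854560, + strand) encodes sarcolipin, a small membrane protein that inhibits the calcium pump of the sarcoplasmic reticulum and is found in atrial rather than ventricular muscle. Its whole coding sequence is short enough to show, with the start and stop codons in capitals (chr9:53853473-53853568, + strand, GRCm38). It has 31 codons before the stop.
Sln: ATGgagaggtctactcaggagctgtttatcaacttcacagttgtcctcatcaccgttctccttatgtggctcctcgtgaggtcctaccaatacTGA
The coding part takes 96 of the 1318 bases of the transcript, and no run of 60 bases was shared with another gene.

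Sln was at 4.81, 6.23, 9.04 and 10.5 CPM in WT and at 3.74, 9.19, 4.71 and 5.06 CPM in the labelled-mutant libraries, from 74 to 239 counts per library. Labelled-mutant libraries 1 and 3 were below all WT libraries, library 4 was near the lowest WT library, and library 2 was above 3 of the 4. Of the members Sln varied most between libraries of 1 group. The means of 7.64 ± 2.59 and 5.67 ± 2.41 CPM gave a log2 fold change of -0.41 (95% confidence interval -1.01 to 0.18, SE 0.274, edgeR FDR 0.649), an interval that runs from -50.2% to 13.2%. The Sln difference was -0.77 without labelled-mutant library 2 (edgeR FDR 0.278) and -0.22 without WT library 4 (edgeR FDR 0.881).

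The calcium pump and its ventricular inhibitor were much more abundant. The cardiac pump, Atp2a2, had means of 2917 ± 78.7 CPM (WT) and 3059 ± 154 CPM (labelled mutant) (log2 fold change 0.07, edgeR FDR 0.540), and Pln, which encodes phospholamban, at 1644 ± 26.5 and 1651 ± 72.5 CPM. The pump gene Atp2a3 was at 6.96 ± 0.535 and 6.25 ± 0.922 CPM. Of the 6 genes listed for the pump and its regulators, 3 were tested and 0 passed the FDR.

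Nr2f1 (chr13:78188973-78199757, - strand) and Nr2f2 (chr7:70351944-70366735, - strand) encode COUP-TFI and COUP-TFII, nuclear receptors that act as atrial identity factors in cardiomyocytes. Nr2f2 is also a factor of venous and lymphatic endothelium and is made in fibroblasts, so its RNA in a ventricle need not come from muscle. The expected counts of both genes were not whole in 8 of 8 libraries. Each overlaps a gene on the other strand, Nr2f1 over 2.42% of its exonic bases and Nr2f2 over 7.46%, and whether counting used the strand is not given in the sources used here.

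Nr2f1 was at 3.84, 5.21, 3.82 and 5.54 CPM in WT and at 4.20, 3.94, 4.15 and 3.77 CPM in the labelled-mutant libraries. WT libraries 2 and 4 stood above all others, and the remaining libraries of both groups lay together. The log2 fold change was -0.20 (95% confidence interval -0.51 to 0.11, SE 0.143, edgeR FDR 0.690). Nr2f1 had the lowest level per kilobase of the members.

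Nr2f2 was at 27.7, 30.4, 27.9 and 25.9 CPM in WT and at 24.9, 26.5, 24.5 and 28.4 CPM in the labelled-mutant libraries. The groups overlapped, with labelled-mutant library 4 as the second highest value of 8. The log2 fold change was -0.10 (95% confidence interval -0.23 to 0.03, SE 0.0604, edgeR FDR 0.597), between -15% and 1.9%.

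Markers of the cell types that also make Nr2f2 were read beside it. Of 7 venous and lymphatic endothelial genes, 7 were tested and 1 fell, beside 0.526% called in either direction among all genes. This was Aplnr, the apelin receptor, at 53.2 ± 3.08 CPM in WT and 42.9 ± 1.25 CPM in the labelled-mutant libraries (log2 fold change -0.31, SE 0.0441, edgeR FDR 0.0118). The call of Aplnr was lost without labelled-mutant library 3 (log2 fold change -0.30, edgeR FDR 0.0534) and with the Y-linked covariate (-0.30, 0.0801), at nearly the same size. The list's summed CPM was 500 to 531 in WT and 482 to 510 in the labelled-mutant libraries, with a median log2 fold change of -0.10. Emcn, an endothelial sialomucin, was at 61.5 ± 7.07 and 69.6 ± 3.5 CPM, and Lyve1, a lymphatic hyaluronan receptor also found on macrophages, at 9.74 ± 1.9 and 8.65 ± 1.74 CPM.

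Of 8 fibroblast and valve genes, 0 passed the FDR and 6 were lower, with a median of -0.06 and a summed CPM of 5499 to 6492 in WT and 5306 to 6425 in the labelled-mutant libraries. Postn, which encodes the matrix protein periostin, had a log2 fold change of -0.18 (edgeR FDR 0.225, but 0.047 with DESeq2 and 0.0144 with no filter), and Lum, which encodes lumican, one of -0.15 (edgeR FDR 0.587). With the Y-linked covariate the Postn difference shrank to -0.08 (edgeR FDR 0.673). Of 7 epicardial genes, 0 passed the FDR and 7 had values above 0, with a median of 0.12 and a summed CPM of 162 to 173 in WT and 171 to 193 in the labelled-mutant libraries. Upk3b, a uroplakin of the mesothelium, was at 0.15 on the log2 scale (edgeR FDR 0.197) and Upk1b at 0.16 (0.585). No defining marker of these 3 cell types was at 0, and their part in the Nr2f2 and Nr2f1 levels was not tested.

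Stard10 (chr7:101317086-101346626, + strand) encodes a lipid transfer protein of the START family that moves phosphatidylcholine and phosphatidylethanolamine between membranes. It was at 17.2, 21.8, 17.2 and 21.2 CPM in WT and at 15.1, 17.9, 12.6 and 18.5 CPM in the labelled-mutant libraries. Labelled-mutant libraries 1 and 3 lay below all WT libraries, and the other 2 between the lower and the upper WT pair. The means were 19.3 ± 2.46 and 16 ± 2.74 CPM, a log2 fold change of -0.28 (95% confidence interval -0.53 to -0.02, SE 0.117), and the edgeR FDR was 0.429. The interval, which is not adjusted for the number of genes tested, runs from -30.8% to -1.52%. With the replicate number as a block the edgeR FDR of Stard10 was 0.103.

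**Figure D3:**
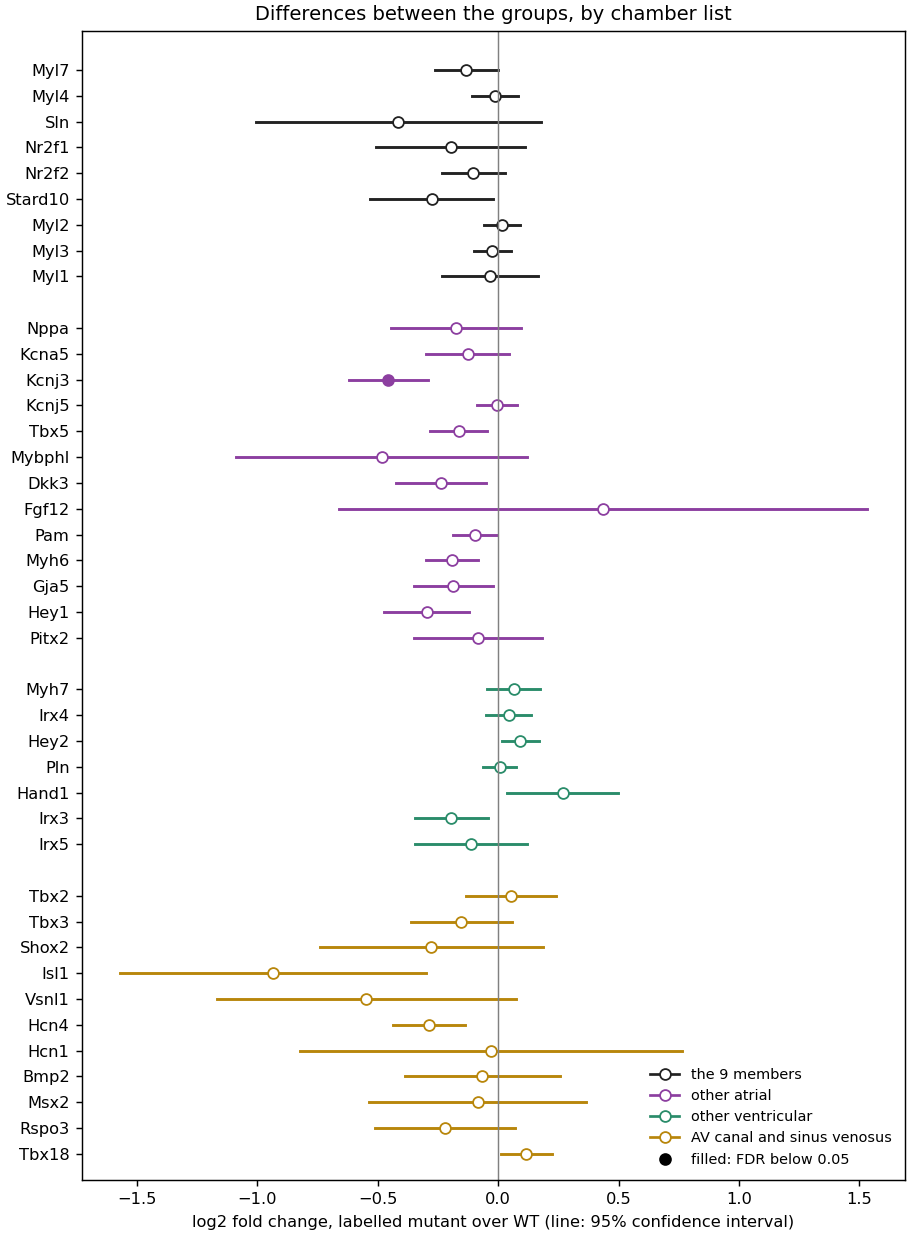
Log2 fold changes of labelled-mutant over WT libraries with 95% confidence intervals from the edgeR fit, for the 9 members and 3 lists of other chamber genes; filled points passed the FDR of 0.05. Only Kcnj3 of the genes drawn is filled, and the intervals of the abundant light chains Myl2, Myl3 and Myl4 are the narrowest among the members.

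The atrial and ventricular members were then set against each other within each library. The mean log2 CPM of the 5 atrial genes minus that of Myl2 and Myl3 was -6.44, -6.20, -6.29 and -6.10 in WT and -6.59, -6.29, -6.51 and -6.33 in the labelled-mutant libraries. As geometric means, the atrial genes were at 1.15%, 1.36%, 1.28% and 1.45% of the ventricular level in WT and at 1.03%, 1.28%, 1.1% and 1.24% in the labelled-mutant libraries. Labelled-mutant libraries 1 and 3 were the lowest of the 8, but WT library 1 lay below labelled-mutant libraries 2 and 4. The atrial percentages were not taken per kilobase and depended on how the genes were combined. In WT they were 14.88% to 16.62% for the light chains alone, 19.08% to 22.08% for summed CPM and 3.068% to 4.073% without Nr2f1 and Nr2f2. In the labelled-mutant libraries they were 13.81% to 15.83%, 19.1% to 20.98% and 2.618% to 3.809% in turn.

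The mean ratio was -6.26 ± 0.144 in WT and -6.43 ± 0.146 in the labelled-mutant libraries, a difference of -0.17, which is close to 1 SD within a group (0.145). No test was made of this score, because its members were chosen with results of these data known. The difference depended on how the genes were combined: it was -0.04 for the ratio of summed CPM, which Myl4 dominates, -0.07 for the light chains alone and -0.19 without Nr2f1 and Nr2f2. The groups overlapped in all 4 versions, and leaving out single libraries moved the first version between -0.23 and -0.12.

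**Figure D4:**
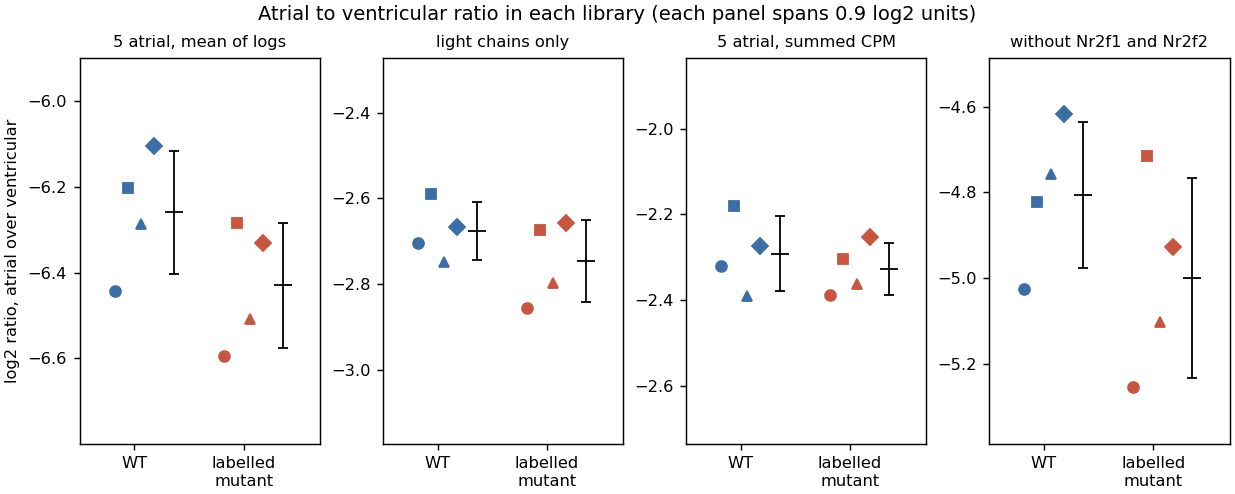
Log2 ratio of atrial to ventricular members in each library, for 4 ways of combining the genes; points are libraries (circle, square, triangle and diamond for replicates 1 to 4), bars are mean ± SD of 4 libraries, and each panel spans the same range. The labelled-mutant mean lies below the WT mean in every panel, by -0.17, -0.07, -0.04 and -0.19 from left to right, and the groups overlap in each.

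To ask whether the atrial members vary together from library to library, 15 pairs were correlated over the 8 libraries on the log2 CPM scale. None of the 15 pairs passed after adjustment over the pairs. The strongest pair was Myl7 and Sln, with Pearson's r = 0.78 (p = 0.0146 by exact permutation, 0.219 after adjustment), and a Spearman's rho of 0.81 (p = 0.0218 by exact permutation, 0.276 after adjustment). Without labelled-mutant libraries 1 and 3, the farthest from the median of Myl7, r was 0.56. After the group means were removed r was 0.72 (exact permutation p = 0.0451, adjusted 0.677). Myl7 and Myl4, both atrial light chains, had r = 0.40 (exact permutation p = 0.322, adjusted 0.749), and Myl7 and Myl2 r = 0.18 (exact permutation p = 0.654, adjusted 0.846). Without labelled-mutant libraries 1 and 3 the values were 0.62 for Myl7 and Myl4 and 0.95 for Myl7 and Myl2, so these relations depend on those libraries.

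The genes whose log2 CPM was most like that of a member over the 8 libraries were sought among 12725 genes, where high values of r arise from the number of genes compared. For Myl7 they were Lsm12 (r = 0.98), Cnrip1 (0.97) and Tfip11 (0.95). Those for Sln were Eif2ak1 (0.97), Mamdc2 (0.96) and Trpm4 (0.95), and those for Myl2 were Atp5a1 (0.98), Atp5j (0.98) and Etfa (0.98). These are descriptions over libraries whose totals differed, and what the genes have in common was not tested.

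**Figure D5:**
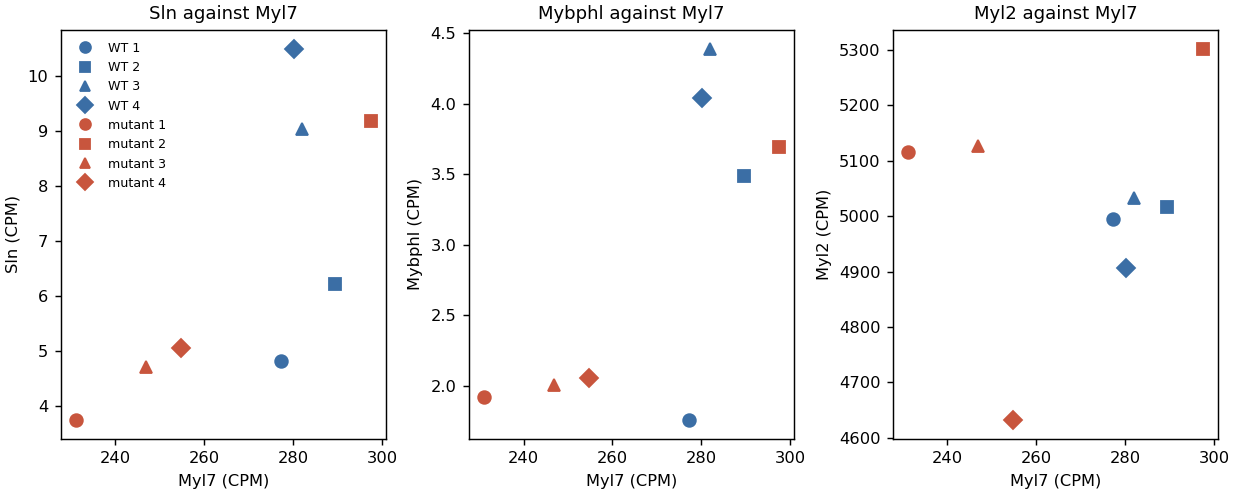
CPM of Sln, Mybphl and Myl2 against CPM of Myl7, with a point per library (blue WT, red labelled mutant, shapes for replicates 1 to 4). Labelled-mutant libraries 1, 3 and 4 are low for Myl7, Sln and Mybphl, WT library 1 is low for Sln and Mybphl only, and labelled-mutant library 2 is the highest of the 8 for Myl7 and Myl2.

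Other atrial genes were read from a list of 13. All 13 were tested, 12 had values below 0, 1 fell and 0 rose, beside 0.526% called in either direction among all genes. Their median log2 fold change was -0.17, against 0.00 over all genes, and 7 of 13 had an unadjusted p below 0.05, as had 10.5% of all genes. Several of them, such as Nppa and Gja5, are also made in the trabeculae of the embryonic ventricle, so the list is not specific to atrial cells. It was also chosen with earlier results of these data known, so its counts were not tested against those of all genes. The summed CPM was 6207 to 6977 in WT and 5567 to 6219 in the labelled-mutant libraries. Most of this sum came from Myh6, Nppa and Pam, at 2330, 1992 and 1796 CPM in WT, so it mainly follows these genes. Myh6, Nppa and Pam had log2 fold changes of -0.19 (edgeR FDR 0.134), -0.17 (0.684) and -0.10 (0.438).

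Kcnj3, which encodes a subunit of the acetylcholine-activated potassium channel of atrial and pacemaker cells, was the gene that fell. It was at 17.9, 18.2, 18.0 and 17.5 CPM in WT and at 14.4, 14.1, 12.0 and 11.5 CPM in the labelled-mutant libraries, with no overlap. The log2 fold change was -0.46 (95% confidence interval -0.62 to -0.29, SE 0.0758, edgeR FDR 0.0261). The call was lost in 5 of 8 fits that left out 1 library, those without WT library 1, 2, 3 or 4 and without labelled-mutant library 3 (edgeR FDR 0.0585 to 0.111), and with the Y-linked covariate (0.0607). The difference stayed between -0.54 and -0.41 in the alternatives. Kcnj5, the partner subunit of the same channel, was at 82.3 ± 2.44 and 82.0 ± 4.12 CPM.

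The other atrial genes with the largest differences did not pass the FDR in this fit. Mybphl, a myosin-binding protein of atrial and conduction cells, was at 1.76, 3.49, 4.39 and 4.04 CPM in WT and at 1.92, 3.69, 2.01 and 2.06 CPM in the labelled-mutant libraries (log2 fold change -0.48, edgeR FDR 0.593). Again labelled-mutant library 2 stood above the other 3 of its group, and WT library 1 was low. Fgf12, a sodium channel regulator of the FGF family, was at 2.52 CPM in labelled-mutant library 2 and at 0.471 to 0.657 CPM in the other 3 (log2 fold change 0.44, edgeR FDR 0.839), and its sign turned to -0.53 without library 2. Hey1, an atrial and endothelial Notch target, was at 16.8 ± 1.35 and 13.7 ± 1.28 CPM (log2 fold change -0.30, edgeR FDR 0.158), and Dkk3, a secreted protein, at 78.5 ± 7.6 and 66.9 ± 9.64 CPM (-0.24, 0.335). Both passed with no filter on low counts (edgeR FDR 0.0418 for Hey1 and 0.0116 for Dkk3), and Dkk3 also without labelled-mutant library 4 (0.033). With the Y-linked covariate the difference shrank to -0.18 for Hey1 (edgeR FDR 0.570) and to -0.05 for Dkk3 (0.864).

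Of 7 other ventricular genes, 0 passed the FDR, 5 had values above 0 and the median log2 fold change was 0.04. Hand1, a factor of the left ventricle, averaged 14.0 ± 1.46 CPM in WT and 16.99 ± 2.66 CPM in the labelled-mutant libraries (log2 fold change 0.27, edgeR FDR 0.390), and Hey2, a factor of the compact myocardium, at 155 ± 5.52 and 166 ± 4.15 CPM (0.09, 0.356). Neither had overlapping groups, although 6.05% of all genes share that property. Irx3, of the trabeculae, was at 22.4 ± 2.06 and 19.6 ± 1.16 CPM (-0.19, edgeR FDR 0.331), and Irx5 at 12.4 ± 1.11 and 11.5 ± 1.84 CPM (-0.11, 0.783). For Irx5 the sign turned with the Y-linked covariate (0.04).

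The tissue between the chambers and the inflow of the heart was covered by 11 genes of the atrioventricular canal and sinus venosus, which can enter a dissected ventricle with its base. Of these, 0 passed the FDR, 9 had values below 0 and the median log2 fold change was -0.15, with a summed CPM of 122 to 133 in WT and 111 to 134 in the labelled-mutant libraries. Isl1, a factor of the sinus node and of heart progenitors, was at 0.988 ± 0.234 and 0.520 ± 0.143 CPM (log2 fold change -0.94, edgeR FDR 0.241), and Shox2, a sinus venosus factor, at 2.20 ± 0.553 and 1.83 ± 0.347 CPM (-0.28, 0.716). The Isl1 values rest on only 8 to 28 counts per library, and with the Y-linked covariate the Isl1 difference was -0.60 (edgeR FDR 0.633). Vsnl1, a calcium sensor of the sinus node, was at 1.29, 2.61, 3.26 and 3.29 CPM in WT and at 1.52, 2.52, 1.26 and 1.82 CPM in the labelled-mutant libraries, where library 2 was again the highest. Hcn4, the pacemaker channel, was at 29.5 ± 2.25 and 24.3 ± 2.1 CPM (-0.29, edgeR FDR 0.0941). Hcn4 passed with no filter (FDR 0.00424), with the likelihood ratio test (0.0128), with DESeq2 (0.0309) and without labelled-mutant library 4 (0.0364). With the Y-linked covariate the Hcn4 difference shrank to -0.20 (edgeR FDR 0.431). How much atrial or inflow tissue each sample held was not measured, and its part in the levels of Myl7, Sln and the other atrial genes was not tested.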

How the data were processed

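For each Ensembl gene, expected counts from RSEM were deposited without normalization for 8 libraries of directional, single 60-base reads. The submitters' processing notes name cutadapt, RSEM 1.3.1 and GRCm38. The aligner and the strand setting are not given in the sources used here. Of the values, 18.1% were not whole, because reads that match several genes are divided, and all were rounded. Groups came from the labels. The labels give 1 ventricle per replicate, yet most libraries held RNA of both sexes, so separate embryos cannot be taken as given and p-values measure the spread between these samples.

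Symbols, positions and sequences came from GENCODE M21 on GRCm38, which matched 53360 of 53465 identifiers. Counts were filtered with filterByExpr, scaled with TMM and compared with edgeR 4.0.16 (glmQLFTest, group as the only term, two-sided, Benjamini-Hochberg over 15388 genes, R 4.3.3). Sums of a list's CPM are over its genes in the table. Correlations used exact permutation tests (scipy 1.17.1). Alternatives included limma 3.58.1 and DESeq2 1.42.0. The fit was tested on simulated data.

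The members and lists were chosen with earlier results of these data known. Named genes are the members, Nrg1 and Cdh5 as checks, each list's calls and at most 4 more by size of difference, and the 3 most alike genes of Myl7, Sln and Myl2. Genes in several lists count in each. Xist, Pln, Kcnj5, Myod1, Myf5, Myf6, Tnnc2, Tnni2, Tnnt3, Myh8, Ckm, Nppa, Pam and Gja5 were named after their values were seen.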

Additional observations from a re-analysis of the deposited data

Results flagged for a closer look

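Of 84 groups of 4 libraries examined for a single library far from the other 3, 7 were picked out, where chance gives 1 in 20 groups, or 4.2. None was a value of the 9 members. Labelled-mutant library 2 stood apart for Mybphl (3.69 CPM, against 1.92 to 2.06 in the other 3) and for Fgf12 (2.52 CPM, against 0.471 to 0.657). Labelled-mutant library 4 stood apart for Dkk3 (81.3 CPM, against 61.7 to 62.9), Hand1 (20.9 CPM, against 15.2 to 15.9) and Shox2 (2.35 CPM, against 1.64 to 1.68). WT library 3 was low for Hand1 (11.9 CPM, against 14.6 to 14.99), and labelled-mutant library 1 was low for Lyve1 (6.07 CPM, against 9.19 to 9.71).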

How the results depend on the processing

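None of the 9 members passed the FDR in any of 20 alternatives each or at an FDR of 0.1. Over the 180 values the lowest FDR was 0.0592 (Myl7 without labelled-mutant library 2), and 6 had the other sign, none past the threshold: Myl4 without WT replicate 2 (0.0298) and without mutant replicate 4 (0.0052), Myl2 with the Y-linked covariate (-0.0497) and without mutant replicate 2 (-0.0067), Myl3 without mutant replicate 4 (0.0155), and Myl1 without WT replicate 2 (0.0483). Leaving out single libraries moved Myl4 between -0.0454 and 0.0298, Myl2 between -0.0067 and 0.055, Myl3 between -0.0423 and 0.0155, Myl1 between -0.1186 and 0.0483, and Sln between -0.77 and -0.22. Of the other genes followed in the alternatives, the sign turned with the Y-linked covariate for Fgf12 (-0.3375), Irx5 (0.0447) and Lum (0.0368). It also turned for Uty (0.0341), but the level of Uty is part of that covariate, so this value says nothing further. On leaving out 1 library it turned for Fgf12 (range -0.5313 to 0.6658, lowest without mutant replicate 2) and Cdh5 (-0.009 to 0.0237, lowest without mutant replicate 4).

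Among the other genes followed in the alternatives, calls were gained for Hcn4, Dkk3, Hey1, Myh6 and Postn. Those of Kcnj3 and Aplnr were lost, as given beside each. With the Y-linked covariate the difference shrank for Hcn4 (-0.1959), Dkk3 (-0.0526), Hey1 (-0.1793) and Postn (-0.0803), and that of Myh6 was -0.1862. The Y-linked genes Ddx3y and Uty gained calls too, with a lowest FDR of 0.000218 and 0.00567. In the main fit their log2 fold changes were -0.85 (edgeR FDR 0.275) and -0.81 (0.390), and 4 of 4 Y-linked genes were lower.

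The number of genes called in all was 81. It was 338 with no filter, 242 with the likelihood ratio test, 198 with DESeq2, 190 at an FDR of 0.1, 16 with the Y-linked covariate, and 11 to 142 on leaving out 1 library, and the cause was not tested. The 11 calls came without labelled-mutant library 3, the 142 without library 4. The atrial to ventricular difference moved by less than 1 SD (0.145) in the alternatives. That SD is nearly as large as the difference itself (-0.17), which shrank to -0.04 with summed CPM and -0.07 with the light chains alone.

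Same-numbered samples of the groups correlated at 0.136, 0.06, 0.042 and 0.133, and those with different numbers at -0.109 to 0.0219, so each sample correlated best with its own number, a hint from the data and not the design. Since 2 of the 4 lay under 0.1 and no label gives a number a meaning, the numbers were not taken as pairs. With the replicate block 93 genes and 0 members were called. Sln and Nr2f1, at 63.9 to 239 counts per library, were the members with the least depth.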
